A study of Homo sapiens with 6 samples.

Results

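The MARCH genes encode membrane-associated RING-CH ubiquitin ligases, and 7 of them were followed in HEK293 cells after knockdown of the long noncoding RNA *HSALNG0134318*. They were found by name as the rows 2-Mar, 3-Mar, 5-Mar, 6-Mar, 7-Mar, 8-Mar and 9-Mar of the gene count table, since gene symbols of this kind had been turned into dates. These 7 rows are read here as *MARCH2*, *MARCH3*, *MARCH5*, *MARCH6*, *MARCH7*, *MARCH8* and *MARCH9* (current symbols *MARCHF2* to *MARCHF9*), and they are 7 of 26485 rows. A mitochondrial gene pair, *MARC1* and *MARC2*, can turn into the same dates, but the table lists both under their own names. The row 1-Mar was left out by rule because it may be another gene. The rows 4-Mar, 10-Mar and 11-Mar were outside the chosen rows and held 0 to 4 counts per culture.

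Gene counts came from RNA-seq of 6 HEK293 cultures, of which 3 had received a Smart Silencer against *HSALNG0134318* and 3 were controls. HEK293 is an established line of human embryonic kidney origin. The Smart Silencer combines siRNAs with antisense oligonucleotides, so that an RNA is targeted by RNA interference and by RNase H. The labels give the genotype of the controls as WT and call them NC in the description, and what the controls were transfected with is not given in the sources used here. Both groups are the same line without any other stated treatment, and transfection was transient. The level of *HSALNG0134318* itself was not analysed here.

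MARCH proteins pass ubiquitin from a conjugating enzyme (E2) to a substrate through a zinc-binding RING-CH domain, and most of them sit in a membrane. MARCH2, MARCH3, MARCH8 and MARCH9 act along the route between the Golgi, endosomes and the cell surface, where ubiquitin marks receptors for removal to lysosomes. MARCH6 is a ligase of the endoplasmic reticulum (ER) that marks proteins for the proteasome, and MARCH5 acts on the outer membrane of mitochondria.

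The label of membrane ligases was checked on the predicted proteins, translated from the canonical coding sequences of GENCODE release 44. Each of the 7 proteins held the spacing of cysteines and a histidine that defines RING-CH. Stretches of 19 residues with a mean Kyte-Doolittle hydropathy above 1.6 were counted as hydrophobic segments. MARCH2, MARCH3, MARCH5, MARCH8 and MARCH9 each had 2 such segments, all C-terminal to the RING-CH stretch, and MARCH6 had 13. MARCH7 had 0, with a highest window of 1.35, so by this measure it carried no membrane-spanning segment and went against the label. The RING-CH stretch lay at residues 9 to 55 of 910 in MARCH6 and at residues 552 to 607 of 704 in MARCH7, near opposite ends of the proteins.

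**Figure D1:**
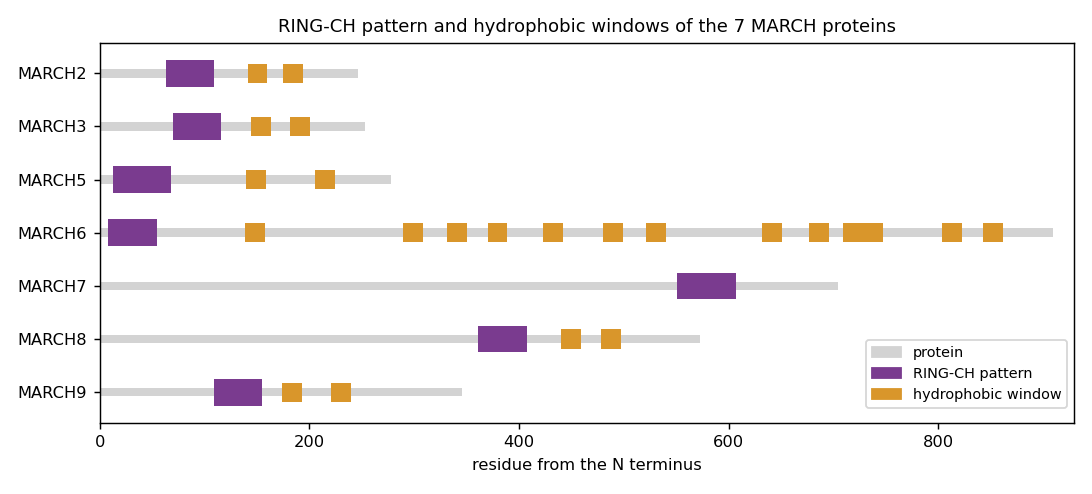
The 7 MARCH proteins drawn to scale, with the residue from the N terminus on the horizontal axis, the RING-CH pattern in purple and each hydrophobic window of 19 residues in orange. MARCH6 has 13 windows, MARCH7 has 0 and each of the other proteins has 2.

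Among the 7 proteins, MARCH2 and MARCH3 were the closest pair, with 64.4% identical residues over the protein and 80.4% over the RING-CH stretch. The nearest relatives of MARCH9 were MARCH4, with 93.5% identity over RING-CH, and MARCH11, with 82.6%. The row 4-Mar held 0 to 2 counts per culture and the row 11-Mar held 0 in all 6. A count of 0 in a library allows up to 3 counts there, so these relatives were at or near the limit of detection at this depth.

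The libraries held 13900965 to 16869948 counts. Knockdown cultures lay 0.271 to 0.315 apart, as the root mean square difference of log2 CPM (counts scaled to library size) over the genes tested. Control replicate 2 lay 0.445 and 0.485 from the other controls, which lay 0.369 from each other. Distances between cultures of different groups were 0.397 to 0.545. Control replicate 3 lay 0.397 to 0.413 from the knockdown cultures, closer than to control replicate 2. By edgeR's quasi-likelihood test, 4.64% of the genes tested were lower and 5.40% higher after knockdown (adjusted p under 0.05), and this call is used throughout. The 7 marker genes that HEK293 cells express summed to 21000 to 31238 counts per culture and none was at 0. The 6 markers of blood, endothelial, liver and stromal cells summed to 8 or 9 counts in knockdown cultures and to 2 to 7 in controls, with *CD3E* at 0.

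All 7 MARCH genes passed the filter on low counts. *MARCH9* was lower in the knockdown group and no member was higher, against background shares of 4.64% lower and 5.40% higher over all genes. The log2 fold changes were negative for 5 members and positive for 2, with a median of -0.04 beside -0.02 over all genes tested. The groups did not overlap for *MARCH6*, *MARCH7* and *MARCH9*, while 32.2% of all genes tested had groups without overlap. In the following, normalized counts are counts scaled to the mean effective library size, each mean is given with its SD (n = 3), and fold changes are knockdown over control on the log2 scale. In bulk RNA, fewer cells that express a gene and less RNA per cell cannot be told apart.

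**Figure D2:**
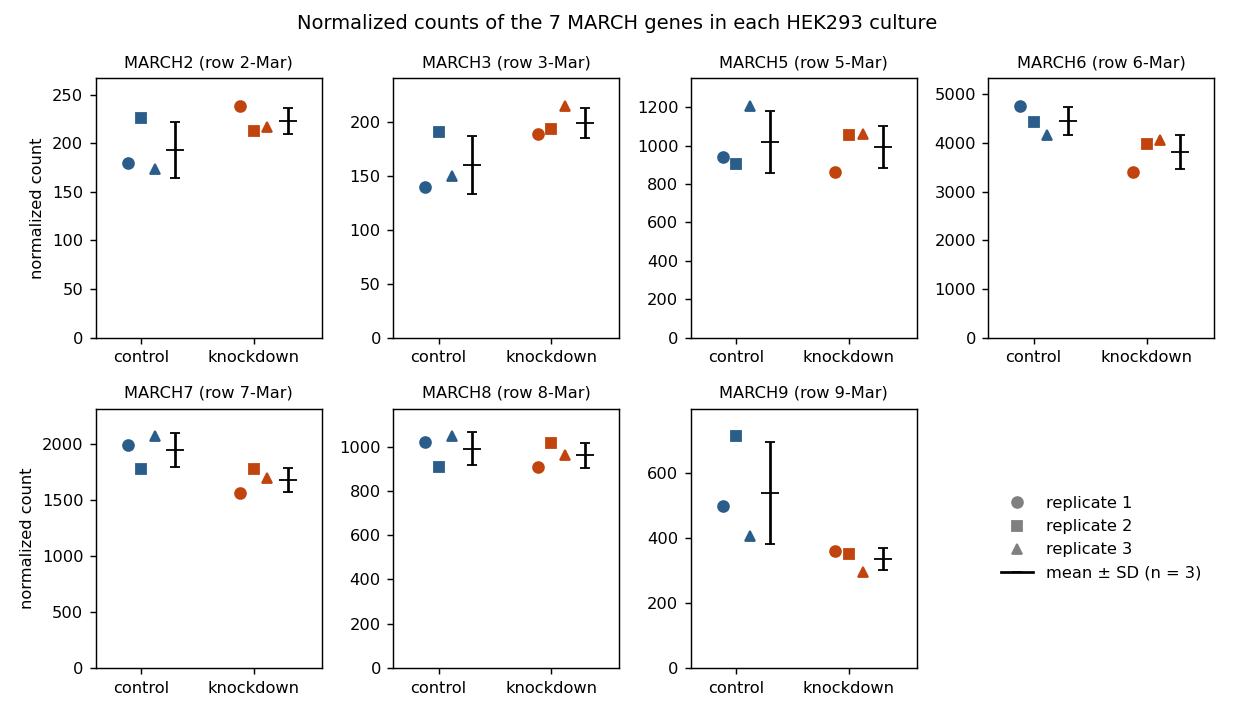
Normalized counts (vertical axes, from 0) of the 7 MARCH genes in 3 control (blue) and 3 knockdown (orange) cultures, with black bars for mean ± SD (n = 3). For *MARCH9* the knockdown cultures sit between 295 and 361 and the controls between 405 and 712.

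*MARCH9*, a ligase of the trans-Golgi network and endosomes known to remove MHC class I and ICAM1 from the cell surface, was the member that fell. Row 9-Mar had 361, 349 and 295 normalized counts in knockdown replicates 1, 2 and 3, and 498, 712 and 405 in control replicates 1, 2 and 3. Every knockdown culture was below every control, and control replicate 2 was the highest of the 6. The knockdown mean was 335 ± 35.3 and the control mean 539 ± 157. This gave a log2 fold change of -0.68 (SE 0.19, 95% interval -1.09 to -0.27), or 0.622 times the control level (0.468 to 0.826), and edgeR's adjusted p was 0.040. Of the 690 genes called lower, 250 had a more negative log2 fold change and the median was -0.59.

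The call of *MARCH9* was close to the threshold. Its log2 fold change was negative in all 14 alternative settings and lay between -0.85 and -0.43, and the adjusted p ran from 0.0051 to 0.16. It was called in 9 of the 14 settings. The adjusted p was 0.056 with limma-voom, and it was 0.10, 0.11 and 0.16 in edgeR without knockdown replicate 1, 2 or 3 and 0.088 without control replicate 1. Without control replicate 2, the culture with the highest value, the log2 fold change was -0.43 and the adjusted p was 0.035.

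**Figure D3:**
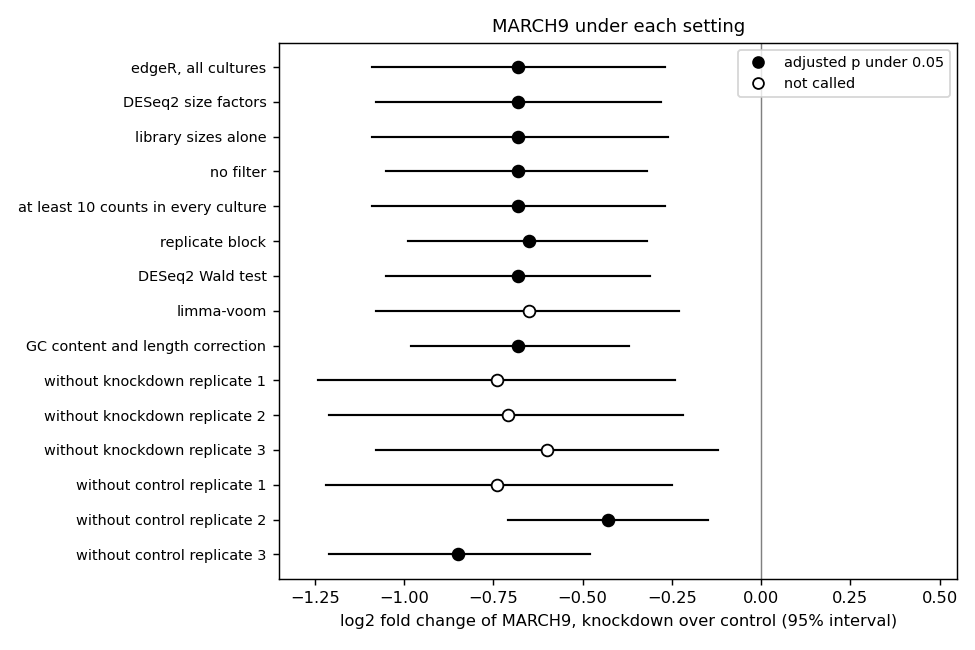
Log2 fold change of *MARCH9*, knockdown over control (horizontal axis), with its 95% interval under edgeR with all cultures and under 14 alternative settings. Filled points have an adjusted p under 0.05. All 15 intervals lie below 0, and the value nearest to 0, -0.43, comes without control replicate 2.

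*MARCH9* lies on chromosome 12 (57755103 to 57760411, plus strand; positions here and below are those of GENCODE release 44, hg38). Its gene body overlaps the opposite-strand gene *CDK4*, a cyclin-dependent kinase of the cell cycle, with 0 shared exon bases. *CDK4* had 1941 to 2256 normalized counts in knockdown cultures and 1922 to 2665 in controls, so the groups overlapped, and its log2 fold change was -0.10 (adjusted p of 0.66 from edgeR). It too was highest in control replicate 2, and its part in the counts of *MARCH9* was not tested.

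*MARCH8*, which removes transferrin receptor and other proteins from the cell surface, lies on chromosome 10 (45454585 to 45594906, minus strand). Row 8-Mar had 906, 1017 and 960 normalized counts in knockdown replicates 1 to 3 and 1019, 906 and 1046 in controls 1 to 3. The groups covered nearly the same range. The means were 961 ± 55.5 and 991 ± 74.5, and the log2 fold change was -0.04 (95% interval -0.26 to 0.18, adjusted p of 0.82 from edgeR).

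The close pair *MARCH2* and *MARCH3*, ligases of endosomes, had the only positive log2 fold changes among the 7, and neither passed the test. *MARCH2* lies on chromosome 19 (8413270 to 8439017, plus strand), and row 2-Mar had 238, 213 and 217 normalized counts in the knockdown cultures and 180, 226 and 173 in the controls. Its groups overlapped through control replicate 2, and the log2 fold change was 0.21 (95% interval -0.12 to 0.54, adjusted p of 0.41 from edgeR). Without that culture it was 0.34 (95% interval 0.03 to 0.64, edgeR adjusted p 0.12). *MARCH3* lies on chromosome 5 (126867714 to 127030558, minus strand), and row 3-Mar had 189, 194 and 215 normalized counts in the knockdown cultures and 140, 191 and 150 in the controls. Here too only control replicate 2 reached the knockdown range. The log2 fold change was 0.31 (95% interval -0.04 to 0.66, adjusted p of 0.25 from edgeR), and over the alternative settings it stayed positive with adjusted p from 0.053 to 0.53. The lowest of these came without control replicate 2, where the log2 fold change was 0.46 (95% interval 0.13 to 0.78).

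*MARCH6*, the ER ligase, had the highest counts of the 7 and lies on chromosome 5 (10353695 to 10440388, plus strand). Row 6-Mar had 3406, 3983 and 4061 normalized counts in the knockdown cultures and 4756, 4440 and 4167 in the controls. The highest knockdown culture was just below the lowest control. The log2 fold change was -0.22 (95% interval -0.44 to -0.01) with an unadjusted p of 0.041 (edgeR adjusted p 0.17), so it did not pass the test. The gene shares 25 exon bases with its opposite-strand neighbour *MARCHF6-DT*.

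*MARCH5*, the mitochondrial ligase, lies on chromosome 10 (92291167 to 92353964, plus strand). Row 5-Mar had 864, 1056 and 1058 normalized counts in the knockdown cultures and 943, 906 and 1205 in the controls. The groups overlapped over most of their range. The log2 fold change was -0.04 (95% interval -0.32 to 0.25, adjusted p of 0.89 from edgeR), and its sign differed between settings.

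*MARCH7*, the member without a hydrophobic segment, is known as axotrophin and lies on chromosome 2 (159712457 to 159771027, plus strand). Row 7-Mar had 1560, 1772 and 1691 normalized counts in the knockdown cultures and 1993, 1778 and 2066 in the controls. Knockdown replicate 2 and control replicate 2 were almost level, and the groups did not overlap. The log2 fold change was -0.22 (95% interval -0.42 to -0.01, adjusted p of 0.16 from edgeR), and without control replicate 2 it was -0.28 with an adjusted p of 0.032. After correction for GC content and length it was -0.13 (95% interval -0.28 to 0.03, edgeR adjusted p 0.24). *MARCH7* shares 2400 bases, 38.2% of its exon length, with *CD302* on the opposite strand. The libraries were made with a stranded mRNA kit, but the strand option of the counting is not given, and reads from the pair cannot be told apart if strand was not used, and *CD302* itself had 0 to 8 counts per culture.

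**Figure D4:**
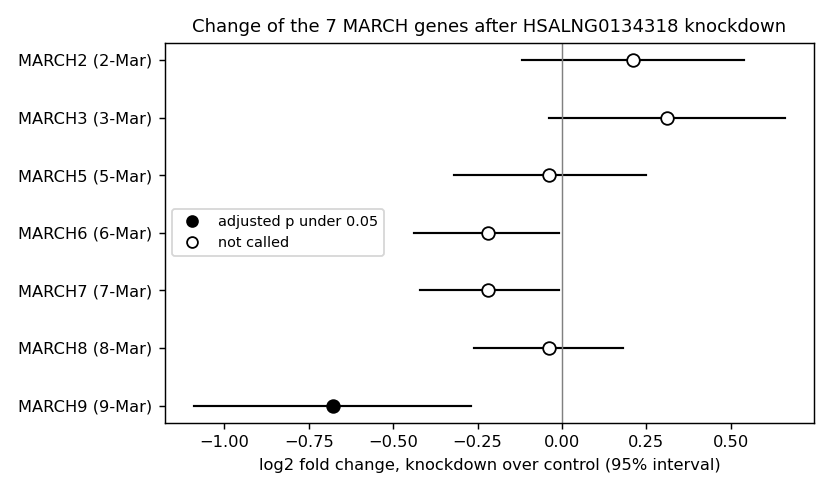
Log2 fold change of each MARCH gene, knockdown over control (horizontal axis), with its 95% interval. The filled point, *MARCH9* at -0.68, is the member with an adjusted p under 0.05, and the intervals of *MARCH6* and *MARCH7* end at -0.01.

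Levels were compared between members per exon length, as counts per kilobase of merged exons and per 1000000 effective counts. The exon lengths come from GENCODE, while the annotation used for counting is not given, so the order between members is approximate. *MARCH7* shares 38.2% of its exon length with *CD302*, and the strand option of the counting is not given. The effect of either on the order was not tested. In the control group the order was *MARCH6* with 26.1 ± 1.73, *MARCH7* with 20.6 ± 1.58, *MARCH5* with 14.6 ± 2.34, *MARCH9* with 8.94 ± 2.61, *MARCH8* with 8.76 ± 0.659, *MARCH2* with 5.78 ± 0.865 and *MARCH3* with 2.16 ± 0.365 (SD, n = 3). *MARCH9* and *MARCH8* overlapped over the control cultures, and the other neighbours in this order did not. The place of *MARCH9* above *MARCH8* came from control replicate 2 alone (11.8 against 8.01). In control replicates 1 and 3 the *MARCH9* level was 8.27 and 6.73 and the *MARCH8* level 9.02 and 9.25. By the same scale, *MARCH6* was above 89.2% of the tested genes of known length and *MARCH3* above 28.2%.

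In the knockdown group *MARCH9*, with a level of 5.57 ± 0.586, stood sixth, below *MARCH8* with 8.50 ± 0.491 and *MARCH2* with 6.68 ± 0.407. No knockdown culture had a *MARCH9* level above 6.0, and the lowest *MARCH2* level there was 6.38. Summed over the 7 members, the level was 72.6, 81.0 and 79.7 in the knockdown cultures and 87.0, 87.0 and 86.8 in the controls. The share of *MARCH9* in this sum was 6.15% to 8.27% in knockdown cultures and 7.76% to 13.6% in controls, and these ranges overlapped.

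**Figure D5:**
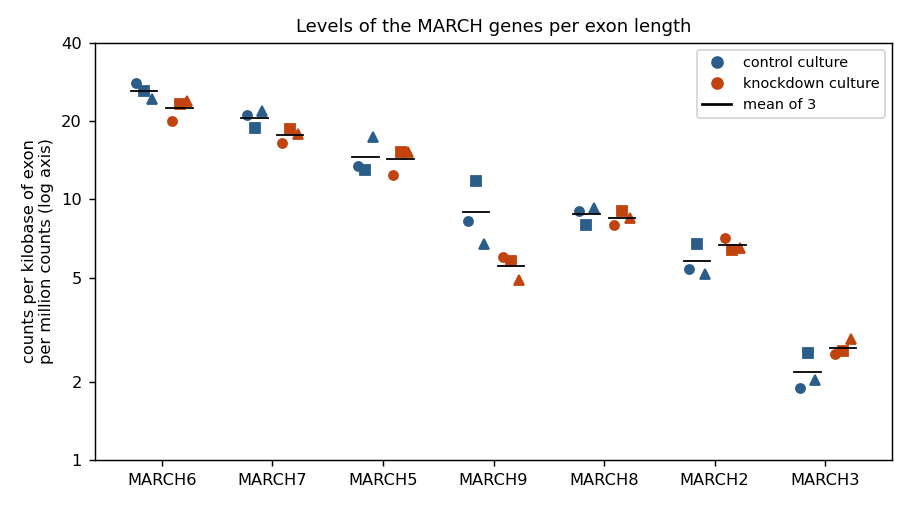
Level per exon length (log axis) of the 7 MARCH genes in control (blue) and knockdown (orange) cultures, ordered by the control mean, with lines for the mean of 3. *MARCH9* has means of 8.94 in controls and 5.57 in the knockdown group, with control replicate 2 at 11.8 and the other controls at 8.27 and 6.73, below the *MARCH8* level of the same cultures.

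The genes whose log2 CPM followed *MARCH9* most closely over the 6 cultures were *FAM57A* (Pearson's r of 0.998), *ARHGEF16* (0.996) and *PRADC1* (0.994). The search covered 11294 genes whose mean count was 100 or more, of which 580 had an r above 0.9. The 6 points share the same libraries and the group difference. Like *MARCH9*, *FAM57A*, *ARHGEF16* and *PRADC1* were each highest in control replicate 2. How far their r depends on that culture was not tested. For *ARHGEF16* the log2 fold change was -0.74 (edgeR adjusted p 0.042), while *FAM57A* had -0.42 (0.068) and *PRADC1* -0.39 (0.17). Among the other members, r with *MARCH9* ran from -0.40 for *MARCH5* to 0.585 for *MARCH6*.

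Proteins that MARCH ligases are known to remove from endosomes and the cell surface were examined at the RNA level. Of 22 such genes 19 were tested, 5 were lower and 0 were higher, with a median log2 fold change of -0.26 beside -0.02 over all genes tested. The background share of lower genes was 4.64%. The list was chosen with earlier results of these data known, so the comparison with this share is a description only. The 4 with the smallest p were the death receptor *FAS* (-0.76, adjusted p of 0.0035), the interleukin-1 co-receptor *IL1RAP* (-0.76, 0.0083), the adhesion protein *ICAM1* (-1.50, 0.015) and the interferon gamma receptor *IFNGR1* (-0.44, 0.023), all from edgeR.

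In normalized counts, *FAS* fell from 704 ± 37.7 in controls to 415 ± 58.5. *ICAM1* was low, with 10.5 ± 1.97 and 30.2 ± 4.80. The fifth, *HLA-DRB1*, is named here after its values were seen (-0.78, adjusted p of 0.032 from edgeR). Its counts are uncertain because reads can be split among near-identical HLA class II genes. Another class II gene of the list, *HLA-DRA*, was not among the genes tested. For *TFRC*, the transferrin receptor, the log2 fold change was -0.13 (edgeR adjusted p 0.41). The count of 5 lower genes was 2, 1 and 2 without knockdown replicate 1, 2 or 3 and 3 without control replicate 1. *FAS* was called in all 14 alternatives, *IL1RAP* in 13, *HLA-DRB1* in 11, *IFNGR1* in 9 and *ICAM1* in 8. *ICAM1* was not called with DESeq2 or with a minimum of 10 counts in each culture.

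Of 5 ER substrates of MARCH6, 4 were tested and *RGS2*, a regulator of G protein signalling, was lower with 95.3 ± 12.3 against 162 ± 32.2 normalized counts (log2 fold change -0.76, edgeR adjusted p 0.030). It was not called without knockdown replicate 1, 2 or 3 or without control replicate 1. For the sterol synthesis enzyme *SQLE* the log2 fold change was 0.07 (edgeR adjusted p 0.69). Of 23 genes of ER-associated degradation, 1 was higher and 1 lower, near the background shares of 5.40% and 4.64%. *RNF145*, an ER ligase of the sterol response, was higher (0.41, adjusted p of 0.011), and *RNF139*, another ER ligase, was lower (-0.41, 0.031), both from edgeR. *RNF139* lost its call without knockdown replicate 1, 2 or 3 or control replicate 1 and with the replicate block, and *RNF145* without knockdown replicate 1 or 2.

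All 19 genes of mitochondrial fusion, fission and outer-membrane ubiquitin were tested, and the mitofusins, which join outer membranes and are substrates of MARCH5, moved in opposite directions. *MFN2* was lower, with 2569 ± 121 against 3516 ± 187 normalized counts (log2 fold change -0.45, edgeR adjusted p 0.0079). *MFN1* was higher, with 984 ± 53.4 against 641 ± 120 (0.62, adjusted p of 0.014 from edgeR). In neither did the groups overlap, and the median of the 19 genes was -0.06. The count of 1 higher and 1 lower of 19 was near the background shares of 5.40% and 4.64%. *MFN2* lost its call without knockdown replicate 2, and *MFN1* without knockdown replicate 1, 2 or 3 or control replicate 1.

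Of 17 E2 enzymes, 3 were lower and 0 higher (background 4.64% lower and 5.40% higher), with a median log2 fold change of -0.22. They were *UBE2W* (-0.68, adjusted p of 0.023), *UBE2L3* (-0.37, 0.025) and *UBE2D3* (-0.34, 0.027), all from edgeR. The number of lower E2 genes was 0, 1 and 0 without knockdown replicate 1, 2 or 3, 1 and 5 without control replicate 1 or 2, 1 with the replicate block, and 7 after correction for GC content and length. Of 28 other membrane-spanning RING ligases 25 were tested, and *RNF144A* (-0.56, adjusted p of 0.021) and *RNF19B* (-0.49, 0.040) were lower and 0 were higher by edgeR, against the same background shares. Both lost the call without knockdown replicate 1, 2 or 3 or control replicate 1, and 5 of these ligases were lower after the GC and length correction.

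The ESCRT complexes and their partners carry ubiquitinated cargo into the lysosome, and 33 of their 34 genes were tested. Here 4 were higher and 2 lower, with a median of 0.04, beside background shares of 5.40% higher and 4.64% lower. *CHMP2B*, an ESCRT-III subunit, was lower (log2 fold change -0.63, adjusted p of 0.0081). The ATPase *VPS4A* (0.44, 0.014), the ESCRT-I subunit *MVB12B* (0.45, 0.015) and the deubiquitinase *STAMBP* (0.40, 0.024) were higher, all by edgeR. *VPS25*, of ESCRT-II (0.41, 0.027), and *VPS37D*, of ESCRT-I (-1.07, 0.042), are named after their values were seen. *VPS37D* also lost its call with limma-voom and without control replicate 2. The number of higher genes was 0 without knockdown replicate 1, 2 or 3 or control replicate 1, and 1, *CHMP2B*, was lower in each of these fits.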

How the data were processed

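The authors deposited whole-number counts of reads per gene, not normalized, for 6 libraries. Per the labels and the paper's methods, reads were checked with FastQC, trimmed with Trim Galore, cleared of ribosomal RNA with SortMeRNA, aligned to hg38 with STAR and counted with featureCounts. Labels and paper give different STAR and featureCounts versions, and the annotation and the strand option of the counting are not given in the sources used here. The libraries were prepared with a stranded mRNA protocol. Depth was 13900965 to 16869948 counts per library.

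After filterByExpr, which kept 14877 of 26485 genes, TMM normalization and the robust quasi-likelihood F test of edgeR 4.0.16 (R 4.3.3) were applied, with Benjamini-Hochberg adjustment and calls under 0.05. Standard errors and 95% intervals were derived from the F statistic and are approximate. The biological coefficient of variation was 12.4%. Positions and lengths come from GENCODE release 44. Replicates are described as biological. The p-values set the group difference against the spread between these cultures, with each gene's variance moderated towards a trend over all genes.

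Members and lists were chosen with earlier results of these data known. All members were named, with at most 4 called genes per list by smallest p and the 3 genes most correlated with *MARCH9*. Alternatives were DESeq2 size factors, library sizes alone, no filter, a replicate block, a minimum of 10 counts in each culture, DESeq2 1.42.0, limma-voom (limma 3.58.1), a loess correction for GC content and length (span 0.3, 97.3% of tested genes), each culture left out, and lengths of the longest transcript. Steps were tested on simulated data with the same dispersion in both groups and with changes larger than that of *MARCH9*. Smaller changes and a deviating control culture were not covered. The single result of 1 list gene is not reported here, and the gene stays in the counts.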

Additional observations from a re-analysis of the deposited data

How the results depend on the processing

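*MARCH9* kept a negative log2 fold change under all 14 alternatives. It lost its call with limma-voom (-0.65) and without knockdown replicate 1 (-0.74), 2 (-0.71) or 3 (-0.60) or control replicate 1 (-0.74), so that 0 members were lower there, and its range with 1 culture left out was -0.85 to -0.43. Without control replicate 2 *MARCH7* was called too (-0.28, range -0.28 to -0.17, and -0.13 after correction for GC content and length), which gave 2 lower members. Range of lower members with 1 culture left out was 0 to 2. The sign turned for *MARCH5* after correction for GC content and length (0.02) and without knockdown replicate 1 (0.05) or control replicate 3 (0.11), with a range of -0.11 to 0.11. For *MARCH8* the value was 0.00 without control replicate 3, with a range of -0.10 to 0.00. The cause was not tested. No other member was called under any alternative, and no member was called higher.

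Over all genes, 1389 were higher and 1516 lower after the GC and length correction, 297 and 233 without knockdown replicate 3, and 1274 and 1238 without control replicate 2. Levels per length from the longest transcript, also taken from GENCODE, were higher, 12.0 for *MARCH9* and 11.7 for *MARCH8*, in the same order.

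The labels name no batch shared between cultures of the 2 groups. Deviations of same-numbered cultures correlated at -0.199, -0.112 and -0.0438. Knockdown replicate 1 and control replicate 3, described in the labels as KD-1 and NC-1, correlated at -0.0116. The labels do not say what the numbers in these descriptions mean. Deviations within a group sum to 0, so these values cannot show whether cultures were paired. With the replicate block, the value for *MARCH9* was -0.65 (edgeR adjusted p 0.0078), the other members were not called, *IFNGR1*, *RNF139*, *UBE2L3* and *UBE2D3* lost their calls, and 714 genes were higher and 619 lower.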
